A study of Mus musculus with 6 samples.

Results

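The genes described here are 10 feedback inhibitors of mitogen-activated protein (MAP) kinase signalling in mouse liver: the dual-specificity phosphatase genes Dusp1, Dusp2, Dusp4, Dusp5, Dusp6, Dusp8, Dusp10 and Dusp16, the Sprouty gene Spry2 and the Sprouty-related gene Spred1. They were chosen by gene symbol, and all 10 were measured among 19938 genes, by 11 of 35556 probe sets. The samples were whole livers of male mice of the inbred strain C57BL6, aged 10 weeks. Every mouse had fasted for 16 h before an intraperitoneal injection of saline or of the cytokine interleukin-6 (IL-6; 100 ng for each animal), and the liver was collected 1 h later. There were 3 saline and 3 IL-6 arrays, each a 1-colour Affymetrix array, and values are log2 expression levels on which a difference of 1 is a doubling.

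IL-6 binds its receptor and the shared chain gp130, which activates the transcription factor STAT3 and, through the phosphatase SHP2 (gene Ptpn11), the Ras-ERK branch of MAP kinase signalling. The dual-specificity phosphatases remove phosphate from both the threonine and the tyrosine of the activation loop of ERK, p38 or JNK, and several of them are themselves transcribed in response to these kinases. Sprouty and Spred proteins act further up and limit the activation of Ras and Raf. In many cell types a growth factor or stress signal raises such genes within an hour, which is why they serve as a readout of recent MAP kinase activity. The comparison asks whether their transcripts differ in liver at the 1 h point, at which the immediate-early genes Jun and Egr1 rose and Fos did not.

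None of the 10 genes passed the test. Dusp1 had the largest difference, to 0.729-fold of saline, followed in size by Dusp6 (1.22-fold), Spry2 (1.16-fold) and Dusp5 (0.868-fold). The other 6 lay between 0.923-fold and 1.08-fold. In limma with Benjamini-Hochberg adjustment over 19938 genes, 0 of 10 had an adjusted p under 0.05, against 0.421% of all genes (0.386% higher and 0.0351% lower). At an unadjusted limma p under 0.05, 1 member was higher (Spry2; 3.78% of all genes) and 1 was lower (Dusp1; 2.83% of all genes). The 3 IL-6 values lay wholly above the saline values in 1 member (6.15% of all genes) and wholly below in 3 (5.48% of all genes). The median difference was -0.066 over the members and 0.003 over all genes, with 3 members positive and 7 negative (51.1% and 48.9% of all genes). In whole liver, fewer cells of a type and less RNA per cell cannot be told apart.

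The 4 members with the largest differences are shown with the 250 bases before their transcription start, taken 5′ to 3′ along the gene from RefSeq (build GRCm38.p6), since this stretch holds the elements through which Dusp1 and Dusp5 are known to be induced. Capitals mark matches to the motifs searched on both strands.
Dusp1, chr17:26508473-26508722, minus strand: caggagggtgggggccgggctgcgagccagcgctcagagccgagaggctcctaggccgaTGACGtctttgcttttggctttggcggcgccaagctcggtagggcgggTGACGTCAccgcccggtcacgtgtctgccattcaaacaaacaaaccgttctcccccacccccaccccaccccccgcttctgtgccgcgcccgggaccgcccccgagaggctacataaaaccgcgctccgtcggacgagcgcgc
Dusp5, chr19:53528895-53529144, plus strand: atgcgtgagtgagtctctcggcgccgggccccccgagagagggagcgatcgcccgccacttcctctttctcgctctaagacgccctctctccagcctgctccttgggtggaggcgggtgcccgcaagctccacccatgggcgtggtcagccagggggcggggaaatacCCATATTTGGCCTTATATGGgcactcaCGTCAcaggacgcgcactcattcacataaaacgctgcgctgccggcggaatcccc
Dusp6, chr10:99262981-99263230, plus strand: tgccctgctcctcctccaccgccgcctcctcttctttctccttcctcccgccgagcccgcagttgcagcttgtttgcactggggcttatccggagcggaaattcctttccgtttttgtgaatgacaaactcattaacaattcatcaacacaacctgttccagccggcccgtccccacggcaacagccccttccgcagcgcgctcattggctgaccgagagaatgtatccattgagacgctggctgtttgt
Spry2, chr14:105896820-105897069, minus strand: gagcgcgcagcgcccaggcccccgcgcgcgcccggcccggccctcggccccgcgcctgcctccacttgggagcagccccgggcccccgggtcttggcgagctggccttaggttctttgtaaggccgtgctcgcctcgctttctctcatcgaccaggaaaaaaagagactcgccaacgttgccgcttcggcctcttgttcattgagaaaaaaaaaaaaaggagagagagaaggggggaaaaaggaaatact

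The Dusp1 stretch held the cyclic AMP response element TGACGTCA at bases 143 to 136 before the start, and a further copy of the shorter form TGACG at bases 191 to 187. The full element contains the shorter form, and occurred in 1.55% of 32851 promoters of this length against 17.8% for the shorter form. Of the 9 members with an entry, Dusp1 and Dusp8 held the full element, and Dusp1, Dusp5, Dusp8 and Dusp16 the shorter form. The Dusp5 stretch held 2 adjacent CArG boxes, the motif bound by serum response factor, at bases 82 to 73 and 72 to 63 (1.47% of promoters, 1 of 9 members). The EGR motif GCGGGGGCG was found in Dusp2 alone among the 9 (2.57% of promoters). No match was found in the 9 stretches to the STAT motif TTCNNNGAA (7.02% of promoters), to the AP-1 motif TGANTCA (6.75%) or to TATAAA (12.4%). The stretches printed for Dusp6 and Spry2 therefore carry no capitals. A match is a string of letters and no evidence of binding.

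Dusp1 encodes an inducible nuclear phosphatase that acts mainly on p38 and JNK and is also a known glucocorticoid target. Its levels were 8.04, 8.28 and 7.72 in saline replicates 1 to 3 and 7.62, 7.46 and 7.59 in IL-6 replicates 1 to 3. Each IL-6 value lay below each saline value, with a gap of 0.094 between the lowest saline and the highest IL-6 array. The group levels were 8.01 ± 0.29 and 7.56 ± 0.08 (SD, n = 3 each), so the spread was wider among the saline arrays. The difference was -0.46 ± 0.13 (standard error), with a 95% interval of -0.75 to -0.16. The limma p was 0.00662 before adjustment and 0.415 after it, and ranked 318 of 19938 from the smallest. By size alone, the difference ranked 43 of 19938 from the most negative. The difference was -0.32 without saline replicate 2, the highest array, and -0.61 without saline replicate 3, the saline array nearest to the IL-6 values (limma adjusted p = 0.718 and 0.0894).

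Dusp2, Dusp4 and Dusp5 encode the other inducible nuclear phosphatases of the set. Dusp2 is best known from immune cells, Dusp4 acts on ERK and JNK, and Dusp5 on ERK. Dusp5 levels were 6.68, 6.67 and 6.61 after saline and 6.67, 6.30 and 6.37 after IL-6. IL-6 replicate 1 sat among the saline arrays while the other two lay below them, so the groups overlapped. The Dusp5 difference was -0.20 ± 0.10 (95% interval -0.43 to 0.02, limma adjusted p = 0.812), and it ran from -0.13 without IL-6 replicate 2 to -0.32 without IL-6 replicate 1. Dusp4 levels were 5.81, 5.81 and 6.0 after saline and 5.74, 5.79 and 5.76 after IL-6. The Dusp4 groups were apart by only 0.016, and the difference was -0.11 ± 0.08 (limma adjusted p = 0.903), or -0.048 without saline replicate 3. Dusp2 levels were 5.57, 5.32 and 5.58 after saline and 5.41, 5.38 and 5.34 after IL-6. Saline replicate 2 was the lowest Dusp2 value of all, and the difference was -0.12 ± 0.09 (limma adjusted p = 0.906), running from -0.072 without saline replicate 3 to -0.20 without saline replicate 2.

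Dusp6 encodes the cytoplasmic phosphatase that is specific for ERK, and its transcript is widely used as a marker of ERK activity. Its levels were 7.32, 7.31 and 7.39 after saline and 7.47, 7.41 and 7.99 after IL-6. All 3 IL-6 values lay above the saline values, but 2 of them by under 0.1 over the highest saline array, while IL-6 replicate 3 stood well above. The difference was 0.28 ± 0.14 (95% interval -0.03 to 0.59, limma adjusted p = 0.807). Without IL-6 replicate 3 it was 0.10 (limma adjusted p = 0.834). The SD was 0.04 among the saline and 0.32 among the IL-6 arrays.

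**Figure D1:**
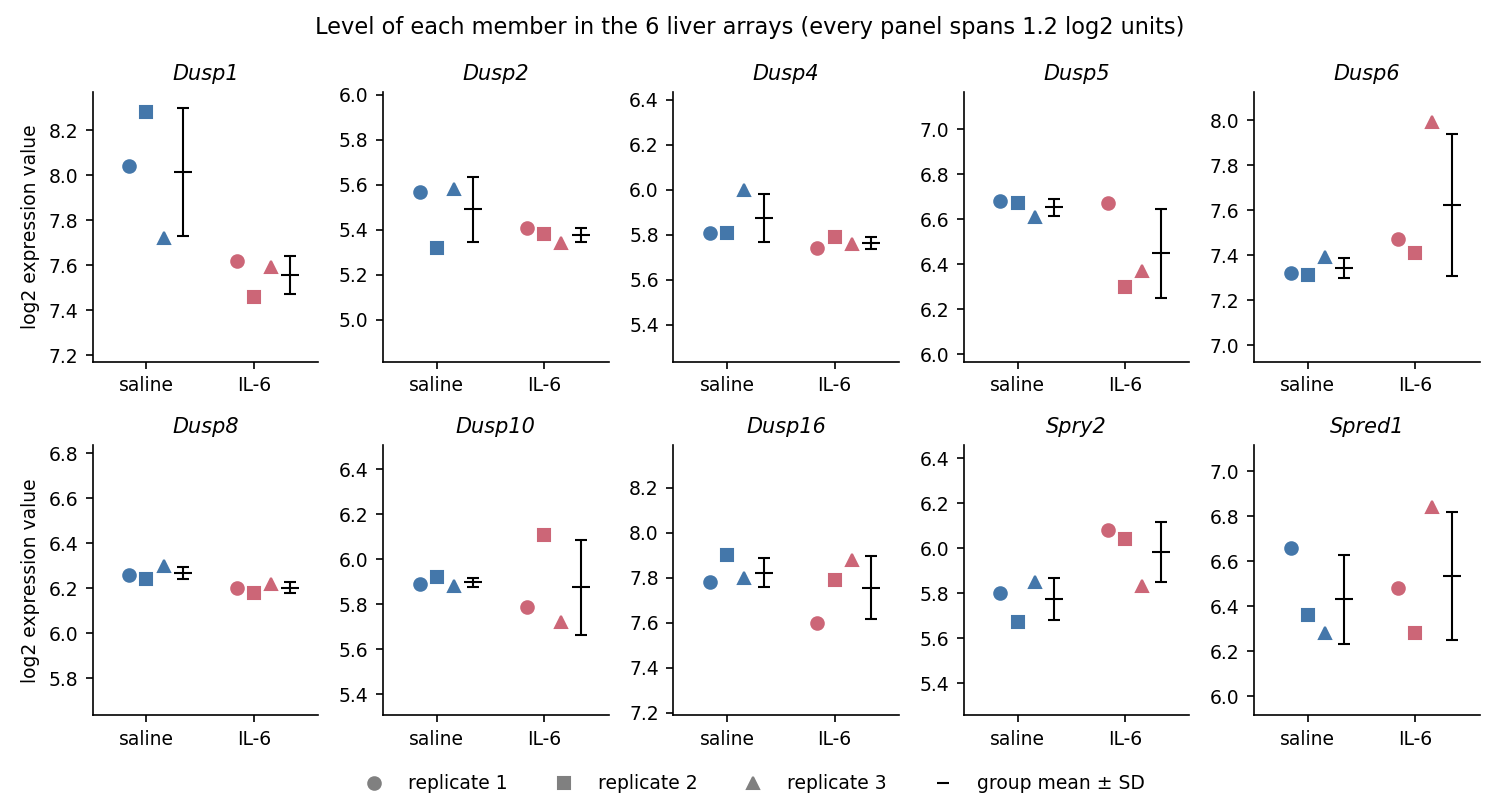
Log2 expression level of the 10 members in each array, with saline in blue, IL-6 in red, marker shapes for replicates 1 to 3 and black bars for the mean ± SD of 3 arrays; every panel spans the same range. Dusp1 is the member with the widest gap between groups, Dusp6 and Spred1 are highest in IL-6 replicate 3, and Dusp8 is the tightest within groups.

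Dusp8, Dusp10 and Dusp16 encode phosphatases that act mainly on JNK and p38. Dusp8 levels were 6.26, 6.24 and 6.30 after saline and 6.20, 6.18 and 6.22 after IL-6. Both Dusp8 groups were tight (SD 0.03 and 0.02) and 0.018 apart, and the difference was -0.065 ± 0.069, a fold of 0.956 with a 95% interval of 0.859 to 1.06 (limma adjusted p = 0.941). A dimmer Dusp8 probe set that was not used, with levels of 4.06 to 4.47, had a difference of 0.11 ± 0.11. The 2 probe sets therefore differed in sign, and both differences were within about their standard error.

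Dusp10 levels were 5.89, 5.92 and 5.88 after saline and 5.79, 6.11 and 5.72 after IL-6. The IL-6 arrays lay on both sides of the saline arrays and spread more widely (SD 0.21 against 0.019), with IL-6 replicate 2 the highest, and the difference was -0.023 ± 0.10 (limma adjusted p = 0.986). Dusp16 levels were 7.78, 7.90 and 7.80 after saline and 7.60, 7.79 and 7.88 after IL-6. They overlapped, with a difference of -0.066 ± 0.089 (limma adjusted p = 0.958). The sign of Dusp10 turned without IL-6 replicate 1 (0.017) or replicate 3 (0.056), and that of Dusp16 without IL-6 replicate 1 (0.010).

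Spry2 encodes an inhibitor of receptor tyrosine kinase signalling to Ras and ERK. Its levels were 5.80, 5.67 and 5.85 after saline and 6.08, 6.04 and 5.83 after IL-6. IL-6 replicates 1 and 2 lay above all saline arrays, and IL-6 replicate 3 lay within them. The difference was 0.21 ± 0.09 (95% interval 0.002 to 0.42), with a limma p of 0.0484 before adjustment and 0.750 after it. Spred1 encodes a membrane-associated inhibitor that brings the Ras inactivator neurofibromin to Ras. Its levels were 6.66, 6.36 and 6.28 after saline and 6.48, 6.28 and 6.84 after IL-6. The Spred1 groups overlapped, with IL-6 replicate 3 alone above all saline arrays. The Spred1 difference was 0.10 ± 0.15 (limma adjusted p = 0.961) and turned to -0.049 without IL-6 replicate 3. In IL-6 replicate 3, then, Dusp6 and Spred1 were at their highest and Spry2 was the lowest of its group.

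**Figure D2:**
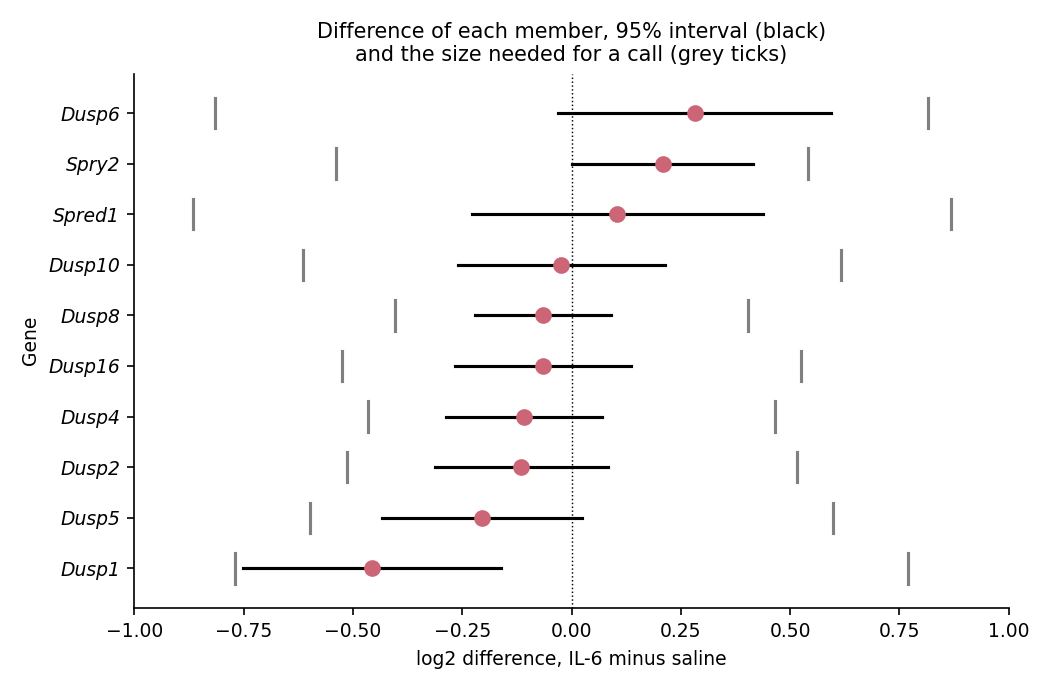
Log2 difference (IL-6 minus saline) of each member as a red point, its 95% interval from limma as a black line, and as grey ticks the difference that the gene would have needed, at its standard error, to pass the adjusted threshold. Every point lies inside its ticks, and Dusp1 at -0.46 against 0.77 comes nearest to passing.

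The precision sets what these arrays could show. At its own standard error, a member would have needed a difference of 0.40 (Dusp8) to 0.87 (Spred1) to pass, and Dusp1 one of 0.77, or 1.71-fold. Over the 10 members, 95% intervals reached no lower than 0.594-fold (Dusp1) and no higher than 1.51-fold (Dusp6). A doubling on the scale of these arrays, up or down, lay outside each interval. The smallest p of an exact two-sided permutation test with 3 arrays a group is 0.1, which Dusp1, Dusp4, Dusp6 and Dusp8 reached. With 3 arrays a group it is reached where the groups do not overlap, so it repeats the overlap count given above. Over all genes, the IL-6 values lay wholly above in 6.15% and wholly below in 5.48%.

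**Figure D3:**
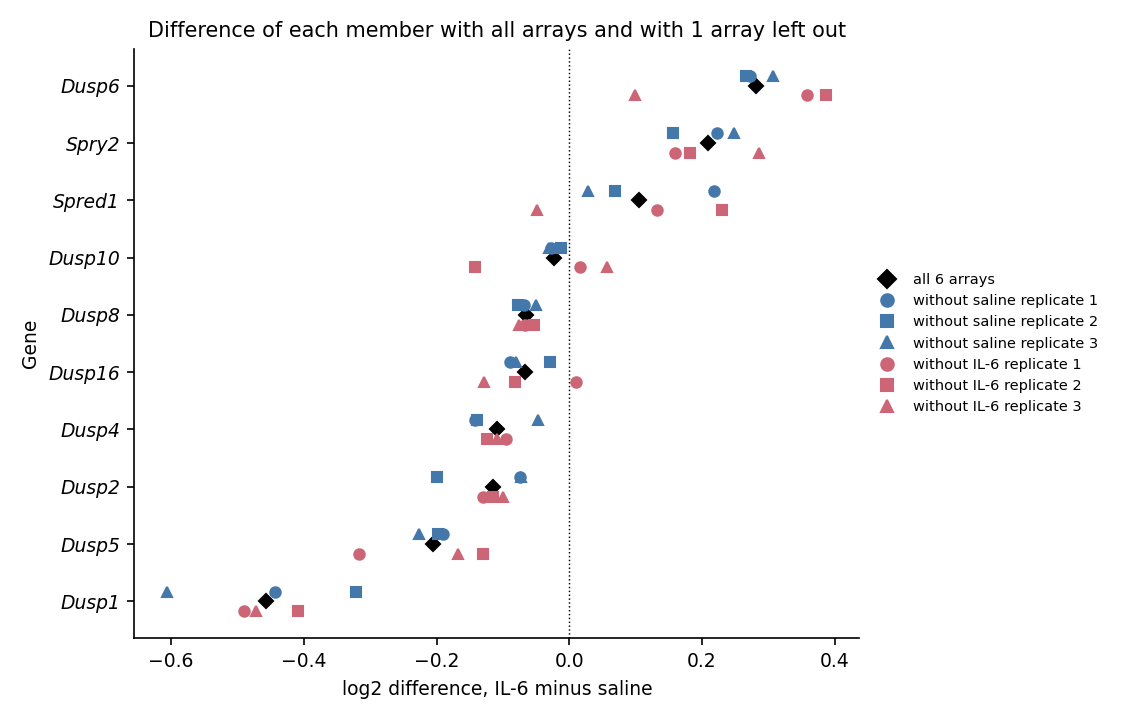
Log2 difference (IL-6 minus saline) of each member with all 6 arrays (black diamond), and with 1 saline array (blue) or 1 IL-6 array (red) left out, marker shapes giving the replicate left out. Dusp1, Dusp2, Dusp4, Dusp5 and Dusp8 stay below 0 and Dusp6 and Spry2 above 0 in every case, while Dusp10, Dusp16 and Spred1 cross it.

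The response to IL-6 itself was plain in the same arrays. Socs3, the STAT3-induced inhibitor of gp130 signalling, was at 6.61, 6.42 and 6.18 after saline and at 9.57, 9.45 and 9.63 after IL-6. All 10 genes of a list of known IL-6 targets passed, Stat3 at the edge of the threshold, and 7 did in a refit on all 35556 probe sets. This list was chosen with earlier results of these data known, so its count is no independent check. Of 23 measured genes on a list of immediate-early and ETS genes linked to ERK, 4 passed as higher (0.386% of all genes). None passed as lower (0.0351% of all genes), and the median difference was 0.20. At an unadjusted limma p under 0.05, 10 were higher (3.78% of all genes) and 0 lower (2.83%). In 10 the IL-6 values lay wholly above the saline values (6.15% of all genes), and in 0 wholly below (5.48%). The ERK-linked list was also chosen with earlier results of these data known, so its counts are no independent check. The 4 that passed were Phlda1, a pleckstrin-homology protein (1.65 ± 0.15), the zinc finger factor Egr1 (1.36 ± 0.14), and the AP-1 subunits Jun (1.32 ± 0.13) and Junb (1.07 ± 0.10). Junb is also on the list of IL-6 targets. The limma adjusted p of the 4 ran from 0.00179 to 0.00254. When the model was refitted on all 35556 probe sets, 0 of the 23 passed, with limma adjusted p of 0.0651 to 0.0797 for these 4 genes. Klf6 missed the threshold at 0.60 ± 0.11 (limma adjusted p = 0.0647), and passed with median centring, without dim genes and with a trend in the variance prior (0.0275 to 0.0490). Named after their values were seen, Myc had 0.96 ± 0.21 and passed only without IL-6 replicate 1 (limma adjusted p = 0.180 with all arrays, 0.0245 without it), Fosl2 had 0.24 ± 0.07 and Ier2 0.23 ± 0.08, while Fos was at -0.001 ± 0.08 and the ETS gene Etv5 at 0.07 ± 0.08.

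The remaining phosphatases and inhibitors gave no call either. Of 18 other dual-specificity and related phosphatases, 0 passed (median difference 0.03), and at an unadjusted limma p under 0.05 there was 1, the cofilin phosphatase gene Ssh3 (0.24 ± 0.08). Dusp12 (-0.16 ± 0.08), Dusp14 (0.10 ± 0.08), Dusp22 (0.08 ± 0.08) and Dusp28 (0.08 ± 0.10) were the next by p. Of 18 other Sprouty, Spred and receptor feedback genes, 0 passed (median 0.003) and 2 had an unadjusted limma p under 0.05. These were Ier3, an immediate-early gene, at 0.42 ± 0.10 and Lrig1, an inhibitor of ErbB receptors, at 0.38 ± 0.15. Spry4, a relative of Spry2, had 5.58, 5.46 and 5.52 after saline and 5.66, 5.59 and 5.83 after IL-6. Its groups did not overlap, and its difference was 0.18 ± 0.08 (limma adjusted p = 0.792).

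Among the kinases that the phosphatases act on or that lie above them, 1 transcript passed. Map2k6, which activates p38, went from 6.72, 6.98 and 6.67 to 5.93, 5.85 and 5.89, a difference of -0.90 ± 0.09 (limma adjusted p = 0.00319), and was the 1 called gene of 19 p38 and JNK kinases (0 in the fit on every probe set, where its limma adjusted p was 0.0732). Mapk14, which encodes p38 alpha, had 0.26 ± 0.08, Map3k1 0.26 ± 0.10, Map2k3 0.15 ± 0.08 and Map3k2 0.18 ± 0.11. Of 17 measured genes of the Ras-ERK cascade 0 passed (median 0.02), and 2 were higher at an unadjusted limma p under 0.05, Nras (0.30 ± 0.09) and the receptor gene Erbb3 (0.22 ± 0.08). Gab1 (0.14 ± 0.08), Ptpn11 (0.11 ± 0.09) and Fgfr4 (-0.12 ± 0.10) came next.

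**Figure D4:**
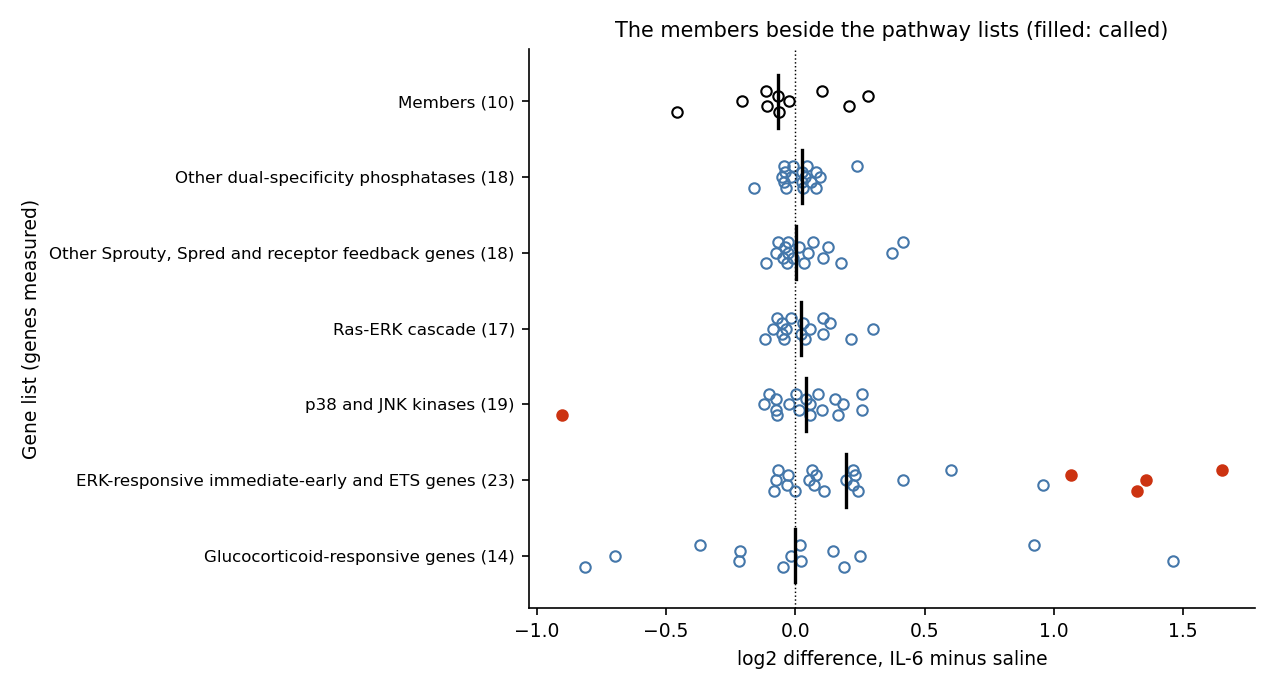
Log2 difference (IL-6 minus saline) of every measured gene of the members and of 6 pathway lists, 1 circle per gene, filled red where the limma adjusted p was under 0.05, with a black bar at each median. The members lie between -0.46 and 0.28 with no filled circle, beside 4 filled immediate-early genes at 1.07 to 1.65 and Map2k6 at -0.90.

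Because Dusp1 is a glucocorticoid target, 14 other such genes were set beside it. None passed in limma, and their median difference was 0.00. At an unadjusted limma p under 0.05, 2 were higher (3.78% of all genes) and 4 lower (2.83%). Tsc22d3, the glucocorticoid-induced leucine zipper, was at 7.96, 8.68 and 7.85 after saline and at 7.43, 7.18 and 7.44 after IL-6. Ddit4, an inhibitor of mTORC1, was at 6.93, 7.91 and 7.10 after saline and at 6.56, 6.63 and 6.65 after IL-6. The clock gene Per1 was at 7.01, 6.86 and 6.86 after saline and at 6.36, 6.67 and 6.60 after IL-6. In these 3, as in Dusp1, each IL-6 value lay below each saline value, with differences of -0.81 ± 0.19, -0.70 ± 0.21 and -0.37 ± 0.10. Over the 14 genes, the IL-6 values lay wholly below in 4 (5.48% of all genes) and wholly above in 1 (6.15%), and the groups overlapped in 9. Saline replicate 2 held the highest value of Dusp1, Tsc22d3 and Ddit4, though not of Per1. Other genes of the list went the other way, among them the metallothionein gene Mt2 (1.46 ± 0.29) and the pyruvate dehydrogenase kinase gene Pdk4 (0.92 ± 0.33). Mt2 passed without saline replicate 2 (limma adjusted p = 0.00507) and with a trend in the variance prior (0.0439). The limma adjusted p of these 5 genes with all arrays ran from 0.103 to 0.598, and their relation to Dusp1 was not tested.

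**Figure D5:**
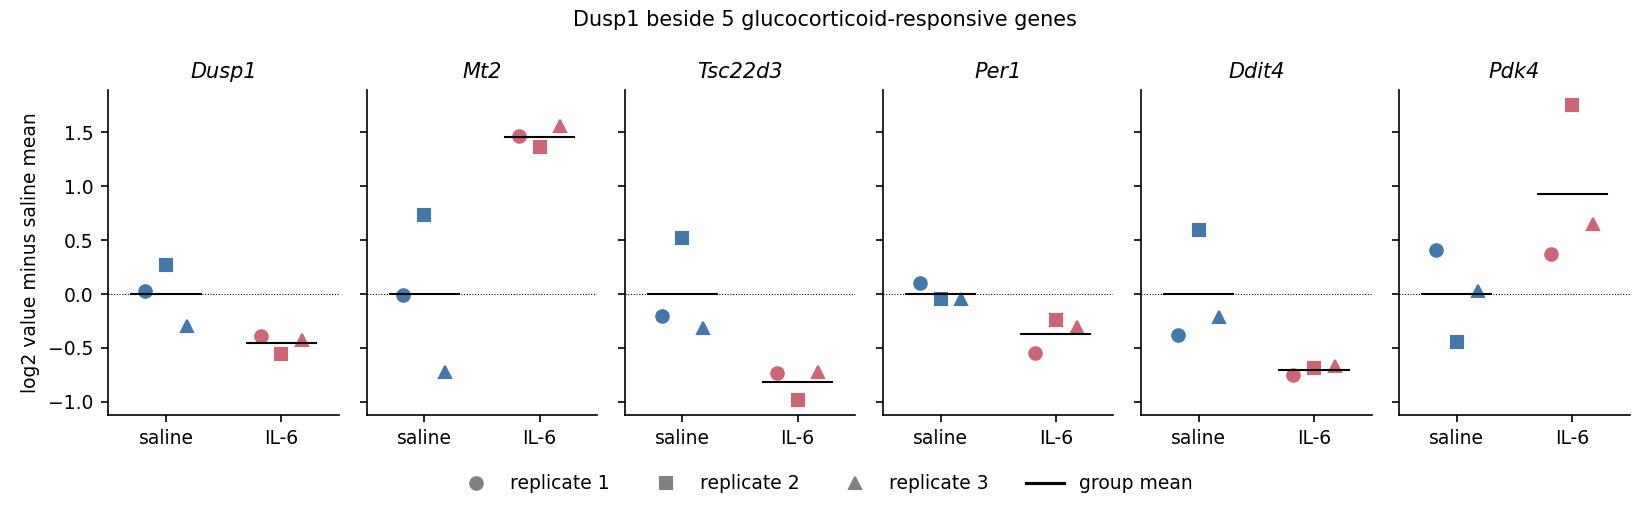
Log2 level minus the saline mean of the gene for Dusp1 and the 5 glucocorticoid-responsive genes with the smallest p, in each array (saline blue, IL-6 red, marker shapes for replicates, black lines for group means). Dusp1, Tsc22d3, Per1 and Ddit4 have all 3 IL-6 arrays below the saline arrays, Mt2 has them above, and Pdk4 overlaps.

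Arrays of a group correlated at 0.989 to 0.991 over all probe sets, and arrays of different groups at 0.987 to 0.990. The second principal component over genes (23.1% of the variance) separated saline replicate 2 and IL-6 replicate 3 from the rest, and these are also the arrays where Dusp1 and Dusp6 were highest. Without both, Dusp1 had a difference of -0.34 and Dusp6 one of 0.08. The labels name no batch. Hepatocyte markers had saline levels of 12.2 to 13.4. Relative to the saline mean, the summary of 9 Kupffer cell markers ran from -0.10 to 0.08 after saline and from -0.03 to 0.27 after IL-6, highest in IL-6 replicate 2, and the groups overlapped for all marker lists but that of 5 cholangiocyte genes (-0.01 to 0.02 after saline, 0.06 to 0.18 after IL-6). Of the marker genes 1 passed, the neutrophil gene S100a8, which was higher after IL-6, while of the 8 neutrophil genes 4 had positive and 4 negative differences. The part of these in the members' values was not tested.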

How the data were processed

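Total RNA of whole liver was labelled with biotin and hybridised to Affymetrix arrays, 1 per sample, per the labels. The authors deposited log2 values, 1 per probe set, from RMA, which corrects background, quantile-normalizes and summarises probes, per the submitters' processing notes. Its version is not given in the sources used here, nor is a genome build. Quantile normalization can remove a shift common to most genes and compress large differences. The platform table gave 1 symbol to 21789 of 35556 probe sets. For genes with several, the probe set with the highest mean was kept, which left 19938 genes without a filter on dim ones.

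The 2 groups were compared in limma 3.58.1 in R 4.3.3 (lmFit, eBayes), two-sided, with Benjamini-Hochberg adjustment over all genes and a threshold of 0.05. The fit was tested on simulated data. The labels do not say that each array was its own mouse, so the p-values reflect only spread among the 6 samples, which may be technical. Beyond the 10 members, up to 5 genes of each list are named, called ones by size before the rest by p and others are said to be chosen afterwards or are markers. Genes with the most similar profiles were to be named for called members, of which there were 0. The members and lists were chosen with earlier results of these data known. RefSeq promoters were found for 9 members, and protein sequences were not used here. Figures were drawn with matplotlib 3.10.9.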

Additional observations from a re-analysis of the deposited data

How the results depend on the processing

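Over 18 alternatives, 0 members were called higher and 0 lower in each, the looser adjusted p under 0.1 included. The stricter adjusted p under 0.01 could call no member, since 0 had passed at 0.05, and fits with arrays left out had fewer samples to make a call. Of the 101 member differences that an alternative could move, 94 kept their direction. The other 79 were fixed, since variance priors, thresholds, the block and the choice of genes tested leave a difference as it is. The 7 that reversed were small: Dusp8 with the mean of its probe sets (0.021), Dusp10 without IL-6 replicate 1 (0.017), without IL-6 replicate 3 (0.056) and without both saline replicate 2 and IL-6 replicate 3 (0.067, an alternative added after seeing the data), Dusp16 without IL-6 replicate 1 (0.010), and Spred1 without IL-6 replicate 3 (-0.049) and without both arrays (-0.085). Leaving out 1 array, these ran from -0.14 to 0.056 (Dusp10), -0.13 to 0.010 (Dusp16) and -0.049 to 0.23 (Spred1). The limma adjusted p of Dusp1 ran from 0.0894 to 0.751. Over all genes, limma called 77 higher and 7 lower. Testing every probe set gave 16 and 1, an adjusted p under 0.01 gave 40 and 3, one under 0.1 gave 12 lower, and leaving out both arrays gave 31 and 2. Leaving out 1 array gave 45 to 67 higher and 3 to 5 lower. The fit on every probe set both adjusts for more tests and re-estimates the variance prior (2.56 prior degrees of freedom in place of 5.28; the standard error of Dusp1 was 0.147 in place of 0.131), and these were not separated. The other counts used fewer samples or another threshold. With the replicate number as a block, 59 were higher, 6 were lower and 0 members were called; deviations of same-numbered arrays correlated at 0.08, -0.12 and -0.09, so the numbers were not taken to pair arrays. Scanner intensities were not used here, so signal over background could not be assessed. Levels of the 10 probe sets used lay above the 25th percentile of genes (4.59), and the unused Dusp8 probe set lay below it.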
